A study of Mus musculus with 6 samples.

Results

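The genes described here are 32 mouse genes of oligodendrocytes and of the myelin they make. They were chosen by name for their known role, with earlier results of these data known. They comprise proteins of the myelin membrane, enzymes of myelin lipids, transcription factors of the lineage, proteins of the node, gap junctions and receptors, and soluble or trafficking proteins. Of the 32 names, 31 had a row in the table of 17385 genes, and all 31 were among the 13937 genes that passed the low-count filter. Nkx6-2, a homeobox transcription factor of the lineage, was not analysed here.

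The measurements were mRNA sequencing counts of the hippocampus from mice of 3 months of age, in 3 5xFAD samples and 3 wild-type (WT) littermate samples. The 5xFAD mouse carries mutant human transgenes of familial Alzheimer's disease, including APP, driven in neurons by the mouse Thy1 promoter, and WT littermates carry none. Animals were perfused before dissection, and their sex is stated differently in different places of the study's methods. Total counts ran from 18997677 to 23873280 per library, and counts of a single member in a library ran from 104 to 90070. Levels below are counts scaled to the TMM effective library size (CPM), all fold changes are 5xFAD over WT on the log2 scale, and n = 3 per group. Because the tissue was sequenced in bulk, fewer oligodendrocytes and less mRNA per oligodendrocyte cannot be told apart.

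Oligodendrocytes wrap axons of the central nervous system in spiral sheets of membrane, which structural proteins such as Mbp compact into myelin. The sheath is rich in galactolipids, is attached to the axon beside the nodes of Ranvier, and is laid down and maintained under a network of transcription factors in which Olig2 and Sox10 act early and Myrf switches on the genes of mature myelin. The hippocampus is mostly gray matter, but it contains myelinated fibres and is bordered by heavily myelinated tracts.

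CTGGCAC is a form of the DNA motif bound by Myrf, and the upstream sequence of 3 members that hold it is shown because they belong to the myelin membrane or the node and are described below. RefSeq promoters on GRCm38.p6 were matched for 23 of the 32 names. Those of Mbp, Sox10, Olig1, Myrf, Fa2h, Trf, Car2, Ndrg1 and Bcas1 were not used here. In the 250 bases before the annotated start, CTGGCAC or its reverse complement GTGCCAG was present in 4 of the 23 (Cnp, Mag, Hapln2 and Lpar1), against 4.83% of 27025 genes. The windows, written 5′ to 3′ on the strand of the gene with the match in capitals, are chr11:100574689-100574938 (plus strand) for Cnp, chr7:30914864-30915113 (minus strand) for Mag and chr3:88027512-88027761 (minus strand) for Hapln2. The window chr17:37023399-37023648 (minus strand) of Mog, the member with the second smallest p, holds neither CTGGCAC nor GTGCCAG and is printed for comparison. Other forms of the Myrf motif were not searched, so neither that window nor the counts can show that a Myrf site is absent.
Cnp: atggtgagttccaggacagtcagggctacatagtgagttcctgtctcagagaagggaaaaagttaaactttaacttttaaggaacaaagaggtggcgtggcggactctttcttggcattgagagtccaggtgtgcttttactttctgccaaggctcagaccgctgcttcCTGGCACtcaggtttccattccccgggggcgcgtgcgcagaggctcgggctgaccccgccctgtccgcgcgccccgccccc
Mag: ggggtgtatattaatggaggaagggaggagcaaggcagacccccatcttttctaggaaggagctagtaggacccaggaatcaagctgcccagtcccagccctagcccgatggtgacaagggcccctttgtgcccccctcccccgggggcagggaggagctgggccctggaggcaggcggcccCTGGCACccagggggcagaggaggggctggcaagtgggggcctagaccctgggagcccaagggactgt
Hapln2: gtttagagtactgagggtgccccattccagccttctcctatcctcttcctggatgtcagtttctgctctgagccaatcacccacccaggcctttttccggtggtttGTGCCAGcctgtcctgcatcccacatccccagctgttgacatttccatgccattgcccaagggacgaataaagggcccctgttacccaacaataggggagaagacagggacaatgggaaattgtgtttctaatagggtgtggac
Mog: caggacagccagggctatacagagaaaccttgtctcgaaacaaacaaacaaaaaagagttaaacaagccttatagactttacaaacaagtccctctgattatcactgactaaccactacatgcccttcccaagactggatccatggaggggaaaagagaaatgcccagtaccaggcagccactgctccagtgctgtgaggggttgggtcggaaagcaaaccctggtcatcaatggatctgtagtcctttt
The match began 81 bases before the start in Cnp and 68 bases before it in Mag, both in the sense orientation, and 144 bases before it in Hapln2 in the antisense orientation. The hexamer CAGCTG, the E-box form bound by Olig2 and related factors, was present in 2 of the 23 promoters against 14.7% of all genes. For the Sox motifs, ACAAAG was present in 7 of the 23 against 18.6%, and AACAAT in 5 of the 23 against 10.9%. Both strands were searched for each motif, none of the motifs contains another, and the matches are a description of these windows only.

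In the hippocampus of 5xFAD mice most oligodendrocyte and myelin mRNAs were at somewhat lower levels than in WT, and none passed the adjusted threshold of the edgeR test. The fold change was below 0 for 27 of the 31 genes, against 50.9% of all genes tested, and the median was -0.25, against -0.01 over all genes. No member was called in either direction at an adjusted p of 0.05 by the edgeR quasi-likelihood test, where 0.667% of all genes were called higher and 0.0933% lower. At an unadjusted p of 0.05 the edgeR test gave 14 members lower and 0 higher, against 9.03% and 9.87% of all genes. DESeq2 called 7 members lower (Mog, Cnp, Pllp, Mag, Mbp, Olig2 and Myrf), where it called 1.26% of all genes lower, and limma-voom called 0, where it called 0.0933%. Standard errors of the fold changes were 0.07 to 0.22. The 95% interval of every one of the 31 genes lay above a 2-fold fall, with a lowest bound of -0.99 for Cnp, and the highest upper bound was 0.71 for Ermn.

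In 14 of the 31 genes all 3 5xFAD libraries were below all 3 WT libraries, against 15.1% of all genes, and in 0 were they all above, against 13.2%. The 14 were Mbp, Cnp, Mag, Mog, Pllp, Gal3st1, Olig1, Olig2, Sox10, Myrf, Hapln2, Gpr37, Lpar1 and Qdpr. They came from each role group, and included all 4 of the transcription factors. Together the 31 genes took 0.719 to 0.850% of the reads in the WT libraries and 0.586 to 0.657% in the 5xFAD libraries, so their summed share did not overlap between the groups. Without Mbp, which alone gave a large part of that sum, the summed level was 3888, 4269 and 3613 CPM in WT replicates 1 to 3 and 3440, 3700 and 3249 CPM in 5xFAD replicates 1 to 3. In that sum 5xFAD replicate 2 exceeded the lowest WT library.

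**Figure D1:**
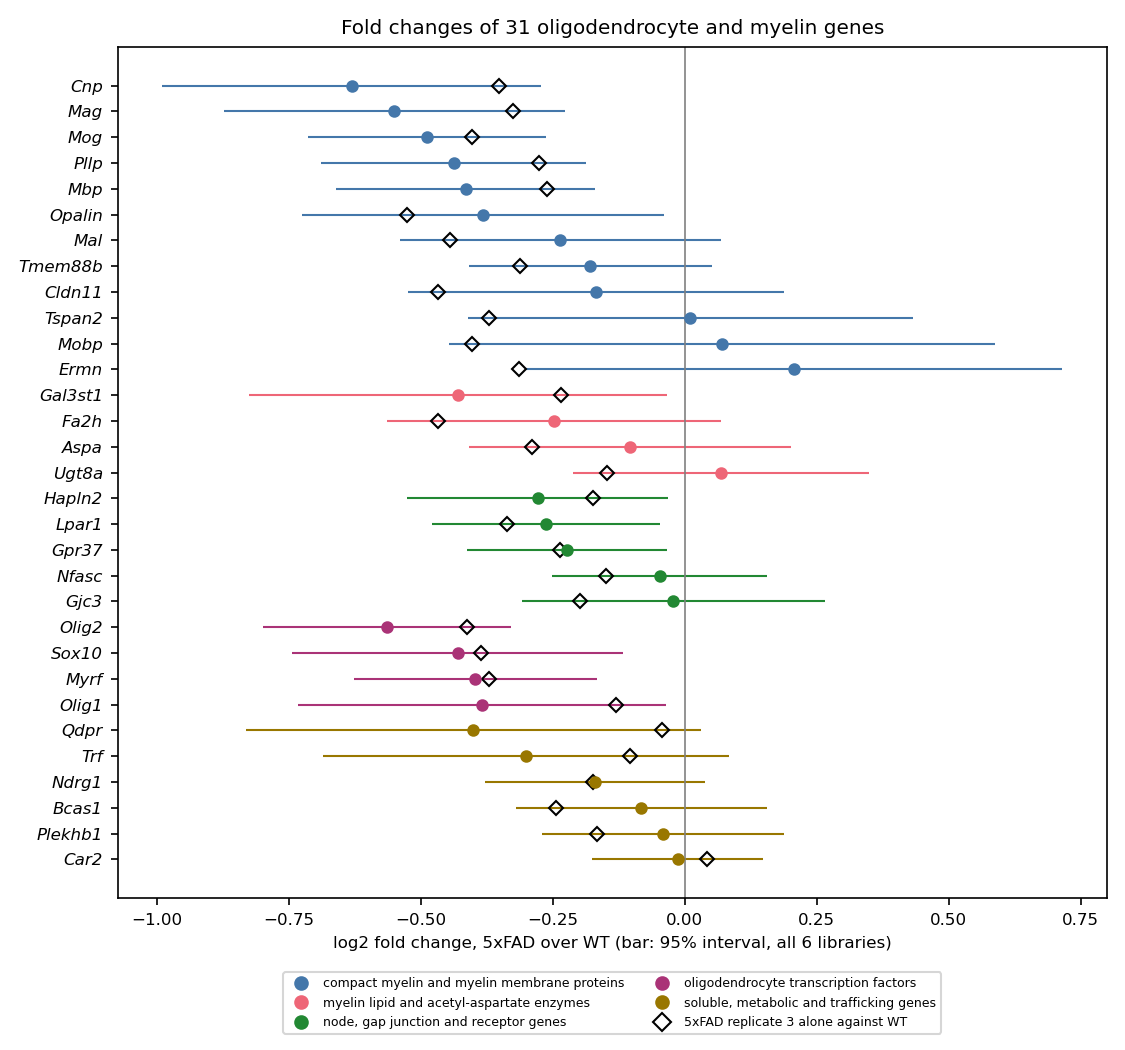
Log2 fold change (x axis, 5xFAD over WT) of the 31 genes (y axis), coloured by role, with bars for the 95% interval from all 6 libraries and open diamonds for 5xFAD replicate 3 alone against WT. The points of Tspan2, Mobp, Ermn and Ugt8a are the 4 above 0, and in 5xFAD replicate 3 alone the diamond of Car2 is the 1 above 0.

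Among the 12 genes of the myelin membrane, 9 had a fold change below 0 and the median was -0.31. Mbp, myelin basic protein, which holds the inner faces of the membrane together, had the highest level per length of the 31 genes in WT, at 790 CPM per kb of transcript. Plekhb1 followed at 149 and Cnp at 111 CPM per kb, and the lowest was Trf at 2.92 CPM per kb. Exons of Trf overlap those of Gm20425, a protein-coding gene on the same strand, over up to 185 bases, so its level is uncertain. Mbp was at 3736, 4173 and 3466 CPM in WT replicates 1 to 3 and at 2872, 2532 and 3126 CPM in 5xFAD replicates 1 to 3. Every 5xFAD library was below every WT library, with 5xFAD replicate 2 the lowest and WT replicate 2 the highest. The fold change was -0.42 ± 0.11 (SE), with an edgeR adjusted p of 0.158.

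Mog, myelin oligodendrocyte glycoprotein of the outermost myelin surface, had the smallest p of the group. Its level was 54.9, 62.9 and 52.7 CPM in WT and 40.4, 38.5 and 42.5 CPM in 5xFAD. The 5xFAD libraries were close together and all under the WT libraries, and the fold change was -0.49 (95% interval -0.71 to -0.26) with an edgeR adjusted p of 0.0912. Cnp encodes the cyclic nucleotide phosphodiesterase of non-compact myelin that keeps cytoplasmic channels open. It was at 253, 292 and 238 CPM in WT and 170, 134 and 202 CPM in 5xFAD, the fold change farthest from 0 of the 31 at -0.63 ± 0.15 (SE), with an edgeR adjusted p of 0.149. Here the 5xFAD libraries were spread, with replicate 2 lowest and replicate 3 nearest to WT. Exons of Cnp overlap those of Dnajc7 on the opposite strand over up to 154 bases, and with the strand setting of the counting not given in the sources used here, reads from that stretch cannot be told apart.

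Mag, the adhesion protein of the innermost myelin layer, had the same pattern as Cnp, at 212, 238 and 186 CPM in WT and 146, 121 and 167 CPM in 5xFAD. Pllp, plasmolipin, a myelin proteolipid, was at 73.8 ± 7.49 CPM (SD) in WT and 54.5 ± 5.11 CPM in 5xFAD. Their fold changes were -0.55 and -0.44 with edgeR adjusted p of 0.156 and 0.150. Exons of Pllp overlap the antisense transcript Gm45767 on the opposite strand over up to 674 bases, so its counts carry the uncertainty given for Cnp. Opalin, a glycoprotein of the paranodal loop, was at -0.38 (adjusted p = 0.245), and the interval of its fold change also lay below 0.

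The other members of the group had intervals that included 0. Mal, a proteolipid of myelin membrane traffic, was at 277, 314 and 254 CPM in WT and 234, 278 and 204 CPM in 5xFAD, so that 5xFAD replicate 2 was within the WT range. Its fold change was -0.24, and those of Tmem88b, a transmembrane protein, and Cldn11, the claudin of the myelin tight junction, were -0.18 and -0.17. Tspan2, a tetraspanin, was at 0.01 and Mobp, a small basic protein of compact myelin, at 0.07. Ermn, ermin, a cytoskeletal protein of late differentiation, was at 103, 115 and 90.7 CPM in WT and 117, 158 and 81.9 CPM in 5xFAD, for a fold change of 0.21. In Ermn, Mobp and Tspan2 alike, 5xFAD replicate 2 was the highest of the 6 libraries and 5xFAD replicate 3 the lowest. Exons of Ermn overlap Galnt5 on the opposite strand, and those of Mobp a processed transcript on the same strand.

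**Figure D2:**
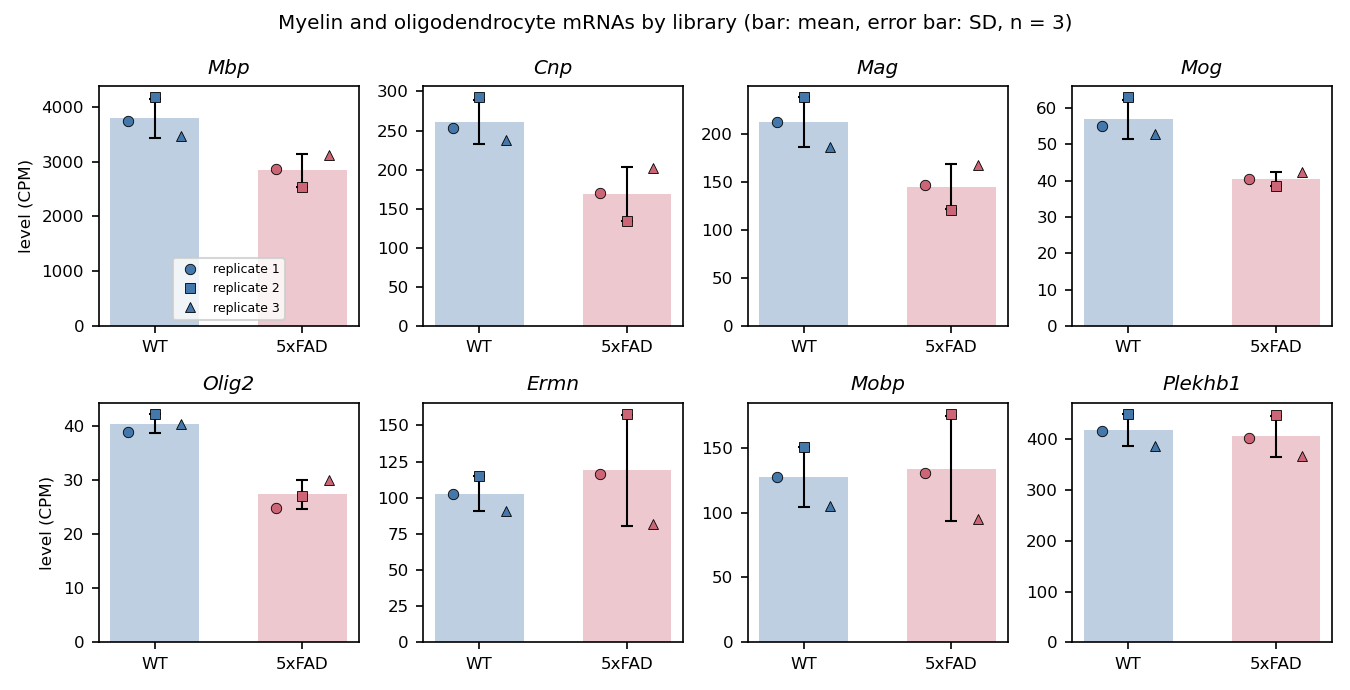
Level (y axis, CPM, linear from 0) of 8 members in WT and 5xFAD, with bars for the mean, error bars for the SD (n = 3) and 1 symbol per replicate. In Mbp, Cnp, Mag, Mog and Olig2 the groups do not overlap, and in Ermn and Mobp 5xFAD replicate 2 is the highest library and 5xFAD replicate 3 the lowest.

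Of the 4 enzymes, Gal3st1, which sulfates galactosylceramide to sulfatide, was at 11.0, 10.9 and 11.0 CPM in WT and 8.97, 6.16 and 9.22 CPM in 5xFAD. The WT values differed little, 5xFAD replicate 2 was the lowest, and the fold change was -0.43 (95% interval -0.83 to -0.03) with an edgeR adjusted p of 0.252. Fa2h, which makes the hydroxylated fatty acids of myelin lipids, was at 70.9, 81.1 and 62.0 CPM in WT and 62.1, 67.2 and 51.0 CPM in 5xFAD, a fold change of -0.25. Ugt8a, which makes galactosylceramide itself, the step before Gal3st1, was at 64.6, 70.2 and 62.9 CPM in WT and 68.7, 79.9 and 58.8 CPM in 5xFAD. The groups of Fa2h and Ugt8a overlapped, and the fold change of Ugt8a was 0.07 (95% interval -0.21 to 0.35). Aspa, which splits N-acetylaspartate into acetate and aspartate in oligodendrocytes, was at -0.10.

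The 4 transcription factors with a row were all below 0, with a median of -0.41. Olig2, the basic helix-loop-helix factor that specifies the lineage and is also expressed by its precursors, had the smallest p of the 31 genes. It was at 38.9, 42.3 and 40.4 CPM in WT and 24.9, 27.1 and 30.1 CPM in 5xFAD, a fold change of -0.56 ± 0.10 (SE) and an edgeR adjusted p of 0.0642. The highest 5xFAD library was well under the lowest WT library. Myrf, the membrane-bound activator of myelin genes, was at 110, 120 and 95.1 CPM in WT and at 81.5, 82.5 and 82.8 CPM in 5xFAD. The 5xFAD libraries were nearly equal and the WT libraries spread, and the fold change was -0.40 with an edgeR adjusted p of 0.154. Olig1, the factor next to Olig2 on chromosome 16, was at 121, 130 and 108 CPM in WT and 94.7, 72.1 and 108 CPM in 5xFAD, where 5xFAD replicate 3 was just under the lowest WT library. Its fold change was -0.38, and that of Sox10, the HMG-box factor of the whole lineage, was -0.43, with edgeR adjusted p of 0.248 and 0.216.

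The 5 genes of the node, gap junctions and receptors were all below 0, with a median of -0.22. Lpar1, a receptor for lysophosphatidic acid, was at 38.3, 35.3 and 35.9 CPM in WT and 32.6, 30.1 and 28.6 CPM in 5xFAD. Gpr37, a receptor that restrains differentiation of oligodendrocytes, was at 84.4, 93.9 and 83.3 CPM in WT and 74.7, 76.3 and 73.1 CPM in 5xFAD. In both the groups did not overlap and the 5xFAD libraries were close together, with fold changes of -0.26 and -0.22 and edgeR adjusted p of 0.234 and 0.236. Hapln2, a link protein of the nodal matrix, was at -0.28 (adjusted p = 0.243), a direction that was lost once GC content and length were fitted. Nfasc, neurofascin, which has glial paranodal and neuronal nodal forms, was at 464, 494 and 439 CPM in WT and 453, 483 and 415 CPM in 5xFAD, and Gjc3, an oligodendrocyte connexin, at 88.1, 95.5 and 80.8 CPM in WT and 83.4, 101 and 75.9 CPM in 5xFAD. These groups overlapped and the fold changes were -0.05 and -0.02, and neurons also express Nfasc.

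The 6 soluble, metabolic and trafficking genes had the median nearest to 0 of the 5 role groups, at -0.13, and none had an unadjusted p under 0.05. Qdpr, which regenerates tetrahydrobiopterin, was at 121, 129 and 123 CPM in WT and 96.0, 66.9 and 119 CPM in 5xFAD. The groups did not overlap, but 5xFAD replicate 3 was close to WT, and the fold change was -0.40 (95% interval -0.83 to 0.03). Ndrg1, a trafficking protein needed for myelin upkeep, was at 173, 192 and 159 CPM in WT and 152, 161 and 153 CPM in 5xFAD, a fold change of -0.17. Plekhb1, a membrane-bound pleckstrin homology protein, was at 415, 450 and 387 CPM in WT and 402, 447 and 368 CPM in 5xFAD. Bcas1, a marker of oligodendrocytes that are forming myelin, was at 243, 267 and 239 CPM in WT and 237, 262 and 208 CPM in 5xFAD. Each of these 3 had overlapping groups, with fold changes of -0.04 for Plekhb1 and -0.08 for Bcas1. Trf, transferrin, the iron carrier, which choroid plexus also makes, was at -0.30. Car2, a carbonic anhydrase, was at 181 ± 0.150 CPM (SD) in WT and 179 ± 4.53 CPM in 5xFAD, with the narrowest interval of the 31 genes, -0.18 to 0.15.

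The fold changes followed the GC content of the transcripts. Across the 31 genes, whose GC content was 38.0% to 61.8%, Spearman's rho of fold change against GC content was -0.65, and across all genes tested it was -0.57. The points share the same 6 libraries, so both are descriptions. The 13 members below the median GC content of tested genes (50.2%) had a median fold change of -0.10, against 0.14 for all genes below it, and the 18 at or above it had -0.39, against -0.17 for all such genes. In both sets the members' median was thus below that of other genes of like GC content. The trend was carried by 5xFAD replicates 1 and 2, where rho between the members' difference from the WT mean and GC content was -0.57 and -0.67, while it was 0.005 in 5xFAD replicate 3.

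With a term for transcript GC content and length fitted in each library, the median of the 31 genes was -0.22, 28 were below 0 against 51.9% of all genes, and 15 had an unadjusted p under 0.05 and were lower, against 8.25% of all genes. Mog was the 1 member called, at -0.52 with an edgeR adjusted p of 0.0322, where 0.194% of all genes were called lower. With the replicate block added to that fit Mog was at the same fold change with an edgeR adjusted p of 0.105, and 0 members were called. All 3 5xFAD libraries were below all 3 WT libraries in 14 members, against 12.8% of all genes, and 9 of these were among the 14 without the term (Mbp, Cnp, Mag, Mog, Pllp, Gal3st1, Gpr37, Lpar1 and Qdpr). The GC-rich transcription factors were nearer to 0 with the term, Olig2 at -0.28, Myrf at -0.11, Olig1 at -0.06 and Sox10 at -0.03. Hapln2, also GC-rich, was at 0.0077, on the other side of 0. The GC-poor Tspan2, Ermn and Ugt8a were below 0 with it, at -0.23, -0.12 and -0.22. Mobp instead moved farther above 0 with the term, from 0.07 to 0.21, and Nfasc was above 0 at 0.11. Mbp and Lpar1 were at -0.37 and -0.38.

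5xFAD replicate 3, the library without the trend, was also compared alone with the 3 WT libraries, a fit that takes its spread from WT. Here 30 of the 31 genes were below 0, against 50.6% of all genes, with a median of -0.29, and Car2 at 0.04 was the exception. The edgeR test called 0 members, where 0.222% of all genes were called lower, and gave 18 members lower at an unadjusted p of 0.05, against 5.77% of all genes. The 12 myelin membrane genes were all below 0, from -0.26 for Mbp to -0.53 for Opalin, and included Ermn at -0.31, Mobp at -0.40 and Tspan2 at -0.37. Of the transcription factors, Olig2 was at -0.41, Sox10 at -0.39, Myrf at -0.37 and Olig1 at -0.13. The median of the 13 GC-poor members was -0.31 and that of the 18 GC-rich members was -0.27.

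**Figure D3:**
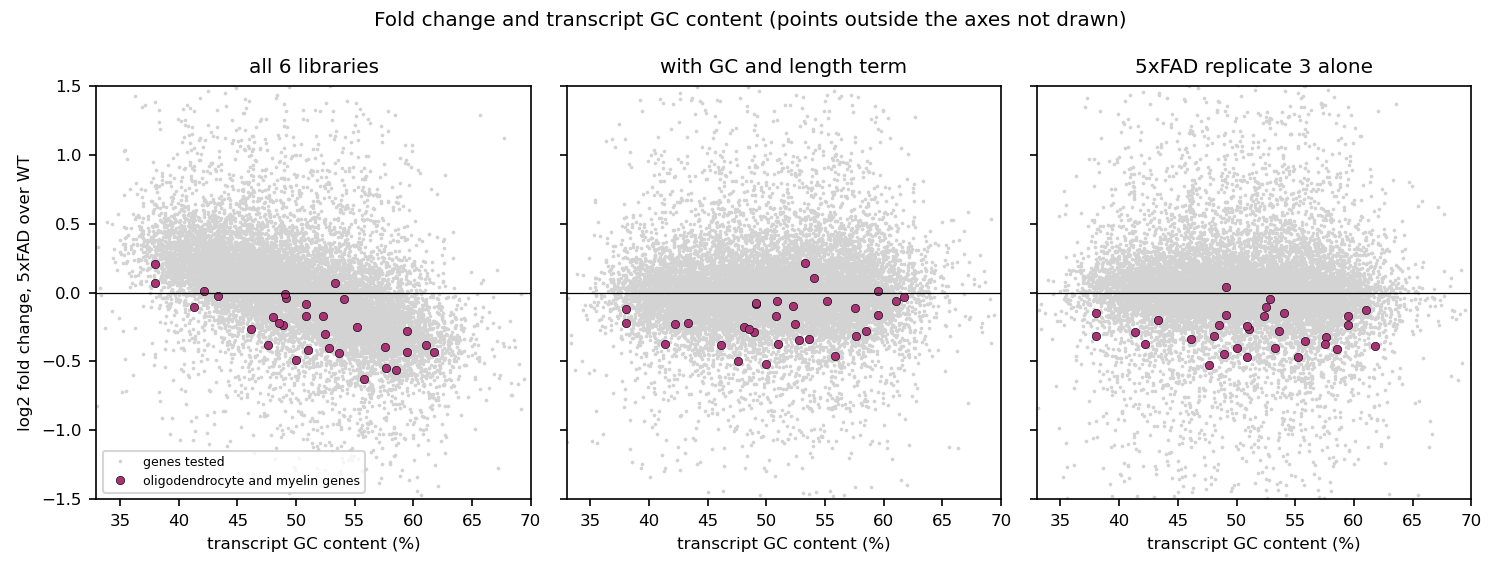
Log2 fold change (y axis, 5xFAD over WT) against transcript GC content (x axis, %) for all genes tested (grey) and the 31 members (purple), in all 6 libraries, with the GC and length term, and in 5xFAD replicate 3 alone. The members slope down with GC content in the first panel (rho = -0.65), and in the third they lie below 0 at every GC content except Car2 (rho = 0.003).

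Calls depended on which libraries were used. Without 5xFAD replicate 3 the edgeR test called 9 members lower (Mog, Cnp, Pllp, Mag, Mbp, Olig1, Olig2, Myrf and Qdpr), but there it called 10.9% of all genes lower. Without 5xFAD replicate 2, the library with the steepest GC trend, it called 2 lower, Mog and Olig2, against 0.298% of all genes. Leaving out 5xFAD replicate 1 or any 1 WT library gave 0 calls among the members. In those fits 0.0142% to 0.0284% of all genes were called lower and 0.071% to 0.121% higher, so 0 calls was not particular to the members.

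The members moved together between libraries of the same group as well. WT replicate 2 was the highest and WT replicate 3 the lowest WT library in 24 of the 31 genes, an order found in 23.5% of all genes. The median difference of the members from their WT mean was 0.12 in WT replicate 2 and -0.12 in WT replicate 3, while the median over all genes was 0.002 in both. In 5xFAD replicates 1, 2 and 3 it was -0.21, -0.12 and -0.30, with 28, 21 and 30 members below the WT mean. The median difference between the groups is thus about as large as the gap between WT replicates 2 and 3, although 5xFAD replicates 1 and 3 had a lower median than every WT library. WT replicate 3 and 5xFAD replicate 2 had nearly the same median.

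**Figure D4:**
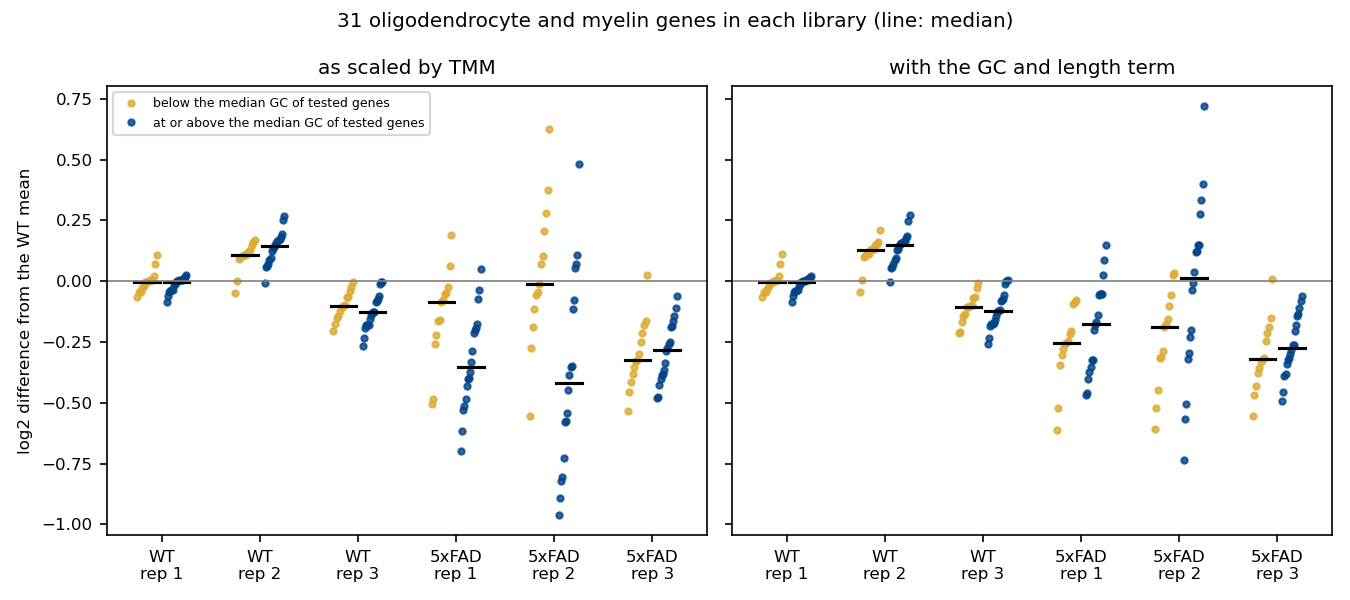
Difference of each of the 31 genes from its WT mean (y axis, log2) in each library (x axis), as scaled by TMM and with the GC and length term, for 13 GC-poor (yellow) and 18 GC-rich (blue) members, with lines for medians. As scaled by TMM, GC-rich and GC-poor members separate in 5xFAD replicate 1 (medians -0.35 and -0.09) and 5xFAD replicate 2 (-0.42 and -0.01) and not in 5xFAD replicate 3 (-0.28 and -0.32).

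Other genes of the lineage were read from the same fit. Of 33 further genes of mature oligodendrocytes, 27 were below 0 with a median of -0.31 and 0 were called by edgeR, while 14 were lower and 1 higher at an unadjusted p of 0.05. Gsn, gelsolin, was at -0.64, Adamts4, a protease, at -0.60 and Ppp1r14a, a phosphatase inhibitor, at -0.73, with edgeR adjusted p of 0.136 to 0.149. With the GC and length term Gsn was called lower, at -0.42 (edgeR adjusted p = 0.0381).

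Earlier stages of the lineage lay nearer to 0. The 7 newly formed oligodendrocyte genes tested had a median of -0.04, with Nkx2-2, a transcription factor, at -0.58, Itpr2, a calcium channel, at 0.23 and Gpr17, a receptor, at -0.23. The 10 precursor genes tested had a median of -0.08, with Ptprz1, a phosphatase receptor, at 0.23, Sox6 at 0.22 and Cspg4, the NG2 proteoglycan, at -0.57. Neither list had a gene called by edgeR, and 1 member of the first and 0 of the second were lower at an unadjusted p of 0.05, with 1 and 2 higher. Cspg4 was at -0.31 without 5xFAD replicate 2, -0.84 without 5xFAD replicate 3 (edgeR adjusted p = 0.0258). Once GC content and length were fitted, Cspg4 was at -0.30, Ptprz1 at 0.072 and Sox6 at 0.10. The difference between the members and these lists was not tested.

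Pathways linked to the sheath gave medians near 0. The 15 genes of sphingolipid synthesis and breakdown had a median of -0.08, among them Asah1, acid ceramidase, at 0.46, Cers2, the very-long-chain ceramide synthase, at -0.35 and Smpd1, acid sphingomyelinase, at -0.34. The 16 genes of axon-glia contact and the node had a median of 0.08, with Lingo1 at -0.35, Erbb3 at -0.23 and Kcna2 at 0.34. No gene of either list was called by edgeR, and 2 and 1 of them were lower at an unadjusted p of 0.05, with 1 and 0 higher. With the GC and length term Lingo1 was at -0.063, Kcna2 at 0.18, Asah1 at 0.25 and Smpd1 at -0.17.

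Genes that have been described in oligodendrocytes of amyloid mouse models, which microglia and astrocytes also express, had a median fold change of 0.38. The median was 0.64 without WT replicate 2, and 0.35 to 0.42 when any other 1 library was left out. All 5 were above 0 with all 6 libraries and TMM scaling, but 1 was below 0 with the GC and length term and 2 in 5xFAD replicate 3 alone. These were Il33, an alarmin cytokine, at -0.13 with the term and -0.26 in that library, and Klk6, a protease, at -0.88 in that library, both named after their values were seen. Serpina3n, a protease inhibitor, was at 75.8, 75.1 and 73.6 CPM in WT and 102, 93.1 and 96.9 CPM in 5xFAD, a fold change of 0.38 and an edgeR adjusted p of 0.0927. C4b, complement component 4, was at 0.99, and H2-D1, an MHC class I chain, at 0.72. For Serpina3n and C4b all 5xFAD libraries were above all WT libraries, and for H2-D1 5xFAD replicate 2 was just under WT replicate 3. C4b and H2-D1 have close relatives in the genome, so their counts are uncertain. With the GC and length term, and in 5xFAD replicate 3 alone, edgeR called Serpina3n, C4b and H2-D1 higher and neither of the other genes.

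**Figure D5:**
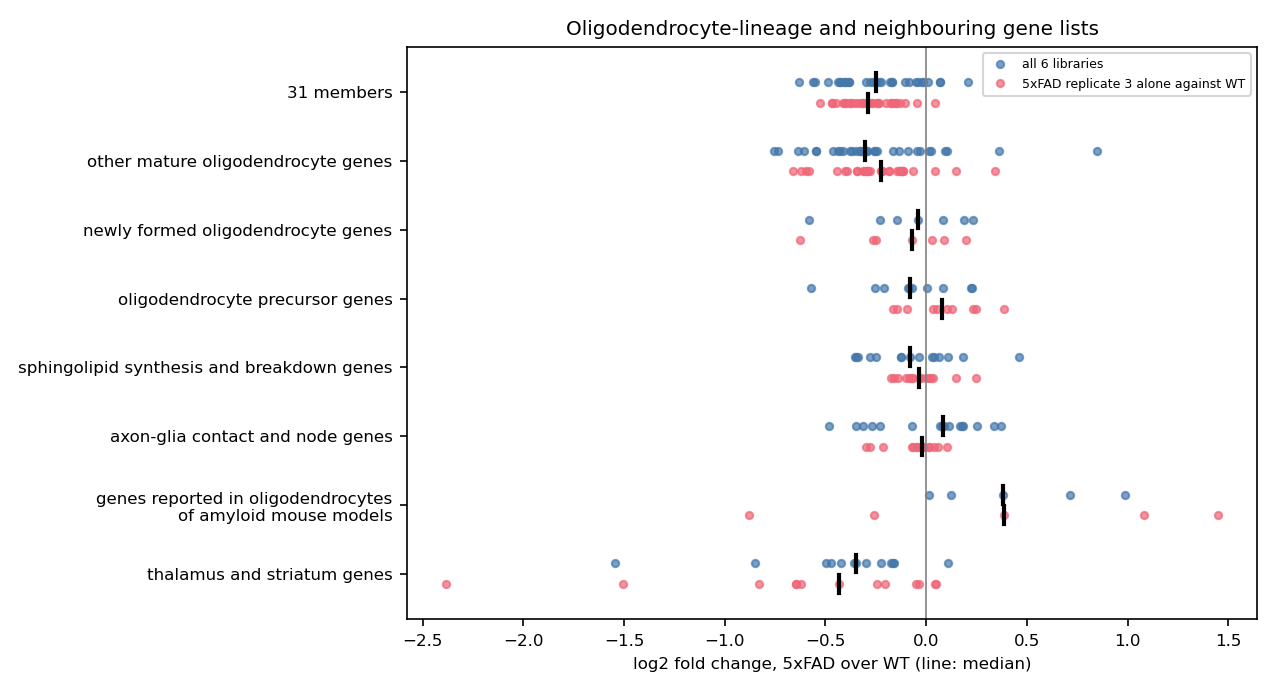
Log2 fold change (x axis, 5xFAD over WT) of the genes of 8 lists (y axis) in all 6 libraries (blue) and in 5xFAD replicate 3 alone (pink), 1 point per gene, with lines for medians. The medians of the 31 members (-0.25 and -0.29), of the other mature oligodendrocyte genes (-0.31 and -0.23) and of the thalamus and striatum genes (-0.35 and -0.43) lie left of 0.

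Markers of other cells and of adjoining tissue were read beside the members. Of the Schwann cell list, 8 of 8 genes had a row and 4 passed the filter. The summed level of that list was 123 to 125 CPM in WT and 127 to 129 CPM in 5xFAD, with Pmp22 at 0.48, Egr2 at 0.66 and Drp2 at -0.07. Genes of thalamus and striatum, regions next to the hippocampus, summed to 174 to 181 CPM in WT and 149 to 163 CPM in 5xFAD without overlap. Of the 13 tested, 12 were below 0 with a median of -0.35 and 0 were called by edgeR. At an unadjusted p of 0.05 by edgeR, 3 were lower and 0 higher (Shox2 at -1.55, Synpo2 at -0.42 and Tcf7l2 at -0.47). Whether cells of the hippocampus, oligodendrocytes included, also express these genes, Tcf7l2 among them, was not tested. None of the 13 was at 0 in every library of a group, and in 5xFAD replicate 3 alone 2 of them were called lower. Choroid plexus genes, 6 of 6 tested, summed to 119 to 130 CPM in WT and 201 to 464 CPM in 5xFAD. Most of that sum was Ttr, at 79.7, 81.1 and 91.6 CPM in WT and 267, 413 and 160 CPM in 5xFAD. The fold changes were 1.73 for Ttr, 1.39 for Folr1 and 0.18 for Kl. Clic6, at -0.27, was the 1 gene of the list below 0 and was named after its value was seen. None was called by edgeR, with 2 higher and 0 lower at an unadjusted p of 0.05. Ttr was called higher with the GC and length term, at 1.55, and in 5xFAD replicate 3 alone, at 0.94. Among 10 genes of hippocampal neurons 1 was called lower, Pou3f1 at -0.54 (edgeR adjusted p = 0.0423), while Spink8 was at -0.52 and Prox1 at 0.66. Pou3f1 was at -0.08 and not called once GC content and length were fitted. The part of any of these in the lower levels of the oligodendrocyte and myelin genes was not tested.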

How the data were processed

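Per the submitters' processing notes, the authors trimmed paired-end reads of the 6 rRNA-depleted hippocampal libraries with cutadapt 1.9.3, aligned them to mm10 with HISAT2 2.0.4, counted them per gene with HTSeq 0.9.1 and used edgeR 3.16.5. The deposited values used here are their raw counts per gene, not normalized. The sources used here give neither the annotation release nor the strand setting. The authors' normalized values (6 columns, 1 per sample), fold changes and p-values were not used. Sample titles gave the groups. The paper describes 3 biological replicates per group, but the mouse behind each sample is not given. The p-values measure the spread between these samples, which may in part be technical. No library was a copy of another (smallest chi-square per gene 4.04).

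The main test was the two-sided quasi-likelihood test of edgeR 4.0.16 in R 4.3.3 on genotype (filterByExpr with a minimum count of 10, TMM, no block), with Benjamini-Hochberg adjustment over all 13937 genes tested and a threshold of 0.05. The SE was the size of the log2 fold change divided by the square root of F. The 95% intervals used the prior and residual degrees of freedom of the fit together, 7.77 for each member. Differences from the WT mean used log2 of CPM with 0.1 added. No exact test of a single gene was run, since 3 against 3 samples cannot give a two-sided p below 0.1. GC content, length and exon overlaps were taken from GENCODE release M21 (GRCm38), with the longest protein-coding transcript per gene and values for 98.3% of tested genes. Exons of 10 members overlapped those of another gene (Bcas1, Cnp, Ermn, Mobp, Ndrg1, Olig1, Pllp, Qdpr, Trf and Tspan2). Splines in GC content and in length, each natural with 4 degrees of freedom, were fitted to every library and entered as offsets. A promoter motif was counted for a gene if any of its RefSeq starts had a match.

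The members, the 10 comparison lists, the alternatives and the rule for named genes were chosen with earlier results of these data known. The rule gave values in every sample for the 2 genes of each role group with the smallest p and the 2 with the highest mean CPM, and named up to 3 genes per comparison list by smallest p. Mag, Ermn, Pllp and Car2 were given in more detail after their values were seen. Alternatives were DESeq2 size factors, library totals, no filter, the DESeq2 1.42.0 test, limma-voom (limma 3.58.1), the replicate number as a block, the GC and length term, both together, leaving out each library, and 5xFAD replicate 3 alone. Some genes of the comparison lists are not reported here by name. The steps were tested on simulated data.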

Additional observations from a re-analysis of the deposited data

How the results depend on the processing

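The median log2 fold change of the 31 oligodendrocyte and myelin genes stayed below 0 under each of the 15 alternatives, between -0.31 and -0.17 when 1 library was left out. Members called lower numbered 0 with edgeR, 7 with DESeq2, 1 with the GC and length term, 0 with that term and the replicate block together, and 0 to 9 when 1 library was left out, and 0 were called higher under every alternative. Over all genes 106 were called, 69 with library totals, 507 with DESeq2, 20 with the replicate block, 179 with the GC and length term, and 12 to 3229 when 1 library was left out. Over all genes tested, same-numbered libraries had correlations of their deviations of -0.04 to -0.01. Among the members, replicate 2 had the highest and replicate 3 the lowest median difference from the WT mean in both groups. These medians were 0.12 and -0.12 in WT, and -0.12 and -0.30 in 5xFAD. Whether the replicate number pairs samples was not tested. Without the GC and length term the replicate block changed no call of a member. With that term the replicate block ended the call of Mog, at an edgeR adjusted p of 0.105.

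Of the members, 22 had the same direction under every alternative and 9 did not. With the GC and length term, alone and with the replicate block, Ermn was at -0.12, Tspan2 at -0.23, Ugt8a at -0.22, Hapln2 at 0.0077 and Nfasc at 0.11, or 0.0085 and 0.096 with the block. Tspan2 was at -0.038 with library totals, -0.022 with limma-voom and -0.018 with the replicate block. In 5xFAD replicate 3 alone Ermn was at -0.31, Mobp at -0.40, Tspan2 at -0.37, Ugt8a at -0.15 and Car2 at 0.042, and of other genes Kcna2 was at -0.046 and Gpr17 at 0.087. When 1 library was left out, the fold change ran from -0.048 to 0.41 for Ermn, -0.17 to 0.26 for Mobp, -0.21 to 0.17 for Tspan2, -0.043 to 0.17 for Ugt8a, -0.097 to 0.0074 for Nfasc, -0.14 to 0.066 for Gjc3, -0.11 to 0.024 for Plekhb1 and -0.035 to 0.0071 for Car2. The cause of these changes was not tested. Standard errors of 0.07 to 0.22 limit what 3 samples a group can resolve.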
